A study of Mus musculus with 4 samples.

Results

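The genes described here are 10 members of the circadian clock, taken by symbol from a table of 22609 genes: Nr1d1, Nr1d2, Arntl, Clock, Npas2, Per1, Per2, Per3, Cry1 and Dbp. All 10 were in the table, and all 10 passed the filter on low counts that left 14788 genes for testing. The data are gene counts from 4 libraries of polyadenylated RNA from whole mouse testes on postnatal day 3, on a background that is mainly C57BL/6J. In 2 libraries the thyroid hormone receptor alpha 1, made from the gene Thra, was labelled wild type, and 2 libraries carried the label dominant negative, meaning a form that blocks the normal receptor. The mice came from crosses of AmhCre animals, in which Cre recombinase is made in Sertoli cells, with TRαAMI heterozygotes, and the labels do not say which alleles each wild-type animal carried. Only the Sertoli cells are meant to make the altered receptor, so RNA of the other testis cells makes up an unknown part of each value. The labels state neither the hour of collection nor whether each library came from its own animal. The p-values thus measure the spread between libraries, which may be technical, and a difference in hour cannot be told apart from a difference in genotype.

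The clock is a loop of transcription factors present in most cells. The proteins of Arntl (also called Bmal1) and Clock, or its relative Npas2, bind DNA together at E-boxes and switch on the Per, Cry, Nr1d and Dbp genes. The Per and Cry proteins then inhibit that pair, the nuclear receptors REV-ERB alpha and beta of Nr1d1 and Nr1d2 repress Arntl and Npas2, and Dbp acts at D-boxes. In tissues with a running clock Arntl and Npas2 therefore peak at the opposite time of day from Nr1d1 and Dbp, while in adult testis such daily rhythms are known to be weak. Nr1d1 also lies tail to tail with Thra, on the opposite strand, and the ends of the 2 genes overlap.

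No clock gene passed edgeR's test between mutant and wild-type testes, though Nr1d1, Nr1d2 and Dbp were lower in both mutant libraries and came nearest to the threshold. By edgeR's quasi-likelihood test with Benjamini-Hochberg adjustment over all 14788 genes, 0 of the 10 were called at an adjusted p below 0.05, against 5.67% of all genes (2.52% lower and 3.15% higher in mutants). At an unadjusted p below 0.05 there were 4, Nr1d1, Nr1d2, Dbp and Cry1, against 25.5% of all genes. DESeq2 called 1, Nr1d1, and limma voom called 0. The log2 fold changes, mutant minus wild type, ran from -0.66 to 0.30 with a median of -0.14, beside a median of -0.01 over all tested genes. The groups did not overlap in 5 of the 10, against 57.3% of all genes: 4 were lower in both mutant libraries (29% of all genes) and 1 was higher (28.3%). The share of clock genes whose groups lay apart was thus no higher than that of the whole table. CPM values below are counts scaled to library size, and pairs of values are in the order of replicates 1 and 2.

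**Figure D1:**
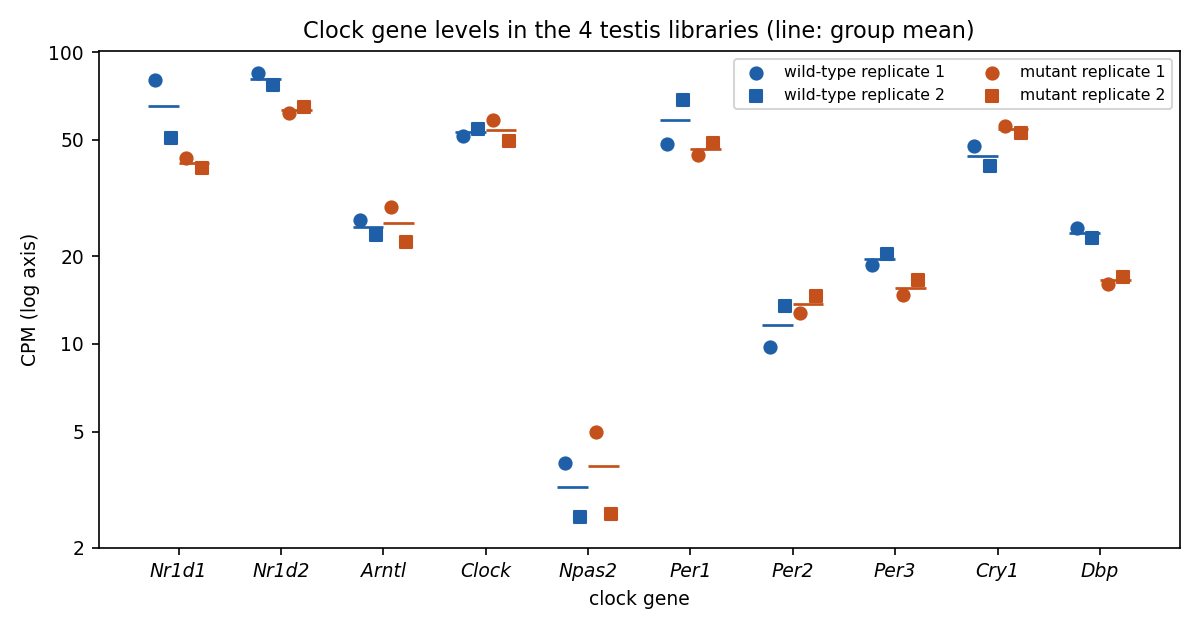
Level of the 10 clock genes as CPM (log axis) in each of the 4 libraries, blue for wild type and orange for mutant, with a line at each group mean. Nr1d1, Nr1d2, Per3 and Dbp lie lower and Cry1 higher in both mutant libraries, and Nr1d1 is highest in wild-type replicate 1 at 80.3 CPM.

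Promoter sequence was taken from RefSeq (build GRCm38.p6), where 9 of the 10 genes had 13 windows of 300 bases, 250 before the start and 50 after it. Per2 was the gene without a match. Windows were searched on both strands for the E-box CACGTG, the related CACGTT, the D-boxes TTATGTAA and TTACGTAA, the elements TAGGTCA and TGGGTCA bound by REV-ERB and ROR proteins, and the cyclic AMP response element TGACGTCA. The 250 bases before the start are shown for Nr1d1 (chr11:98775378-98775627, minus strand), the gene with the largest difference, and for Per3 (chr4:151044666-151044915, minus strand) and Cry1 (chr10:85185055-85185304, minus strand), where the groups did not overlap, in lower and higher direction. For Arntl a stretch of 30 bases around its only match is shown (chr7:113207530-113207559, plus strand). Capitals mark the matches. Nr1d2 and Dbp were also lower in both mutant libraries, but held no match and are not shown.
Nr1d1: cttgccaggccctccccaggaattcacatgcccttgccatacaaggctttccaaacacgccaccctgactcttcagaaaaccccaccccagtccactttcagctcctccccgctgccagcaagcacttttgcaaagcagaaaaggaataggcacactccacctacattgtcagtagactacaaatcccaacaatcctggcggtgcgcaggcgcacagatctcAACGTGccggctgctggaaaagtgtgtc
Per3: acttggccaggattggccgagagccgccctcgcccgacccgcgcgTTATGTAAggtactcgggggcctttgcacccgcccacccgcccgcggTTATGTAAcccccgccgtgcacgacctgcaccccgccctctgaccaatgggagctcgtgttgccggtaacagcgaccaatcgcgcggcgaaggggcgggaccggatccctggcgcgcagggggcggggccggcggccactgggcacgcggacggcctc
Cry1: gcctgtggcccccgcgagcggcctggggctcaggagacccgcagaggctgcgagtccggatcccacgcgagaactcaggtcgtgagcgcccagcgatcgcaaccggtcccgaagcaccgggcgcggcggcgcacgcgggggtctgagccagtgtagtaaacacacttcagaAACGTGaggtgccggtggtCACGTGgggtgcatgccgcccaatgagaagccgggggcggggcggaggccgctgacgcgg
Arntl: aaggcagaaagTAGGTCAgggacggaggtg

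Per3 held 2 copies of TTATGTAA, 205 and 158 bases before its start, and was the only 1 of the 9 genes with a D-box. Its window was the only 1 of their 13 with this match, which 1.06% of all 32851 promoter windows held. The shares given here are per window, and some of the 9 genes had more than 1 window. Cry1 held CACGTG 60 bases and AACGTG, which is CACGTT on the other strand, 79 bases before its start. Per1 held CACGTG 166 bases before the first of its starts, and Nr1d1 held AACGTG 28 bases before its start. Among all windows 7.15% held CACGTG and 4.68% held CACGTT. Arntl held TAGGTCA in the window of its second start, 31 bases after it, and 6.45% of all windows held that element or TGGGTCA. The response element TGACGTCA (1.79% of all windows) was in no window of the 9 genes, and Dbp, Nr1d2, Clock and Npas2 held none of the motifs in these windows.

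Levels between genes were compared per length, as CPM per kilobase of annotated exon (RPKM). Nr1d1 at 12.8 to 25.7 RPKM over the 4 libraries, Cry1 at 13.5 to 18.5 and Nr1d2 at 12.3 to 16.9 overlapped at the top of the order. Nr1d1 was above Cry1 in the wild-type pair (25.7 and 16.2 against 15.8 and 13.5 RPKM) and below it in the mutant pair (13.9 and 12.8 against 18.5 and 17.5 RPKM). Per1 came next at 7.88 to 12.1, overlapping Arntl at 7.62 to 10.1. Dbp at 5.47 to 8.46 overlapped both Arntl and Clock, which lay at 5.62 to 6.61. Per2 at 1.67 to 2.50 and Per3 at 1.53 to 2.11 did not differ beyond their spread, and Npas2 was lowest, at 0.532 to 1.04 RPKM. Thra, for comparison, lay at 42.0 to 86.3 RPKM, above every clock gene. Of the partners of Arntl, Clock thus lay above Npas2 in every library on the scale per length.

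Nr1d1, which encodes the repressor REV-ERB alpha (chromosome 11, 98629246 to 98636647, minus strand, mm9), stood at 80.3 and 50.6 CPM in the wild-type pair and 43.3 and 39.9 CPM in the mutant pair. Wild-type replicate 1 stood apart from the other 3 libraries, and both mutant libraries were below both wild-type ones. The log2 fold change was -0.66 ± 0.19 (SE; edgeR adjusted p = 0.0816). It rested on that library: with wild-type replicate 1 left out it was -0.29 (adjusted p = 0.25), with wild-type replicate 2 left out it was called at -0.95 (adjusted p = 0.0284), and with mutant replicate 1 left out it was called at -0.72 (adjusted p = 0.0186). DESeq2 called it at -0.65 (adjusted p = 0.0242).

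Nr1d2, the gene of the related repressor REV-ERB beta (chromosome 14, 19036568 to 19071641, minus strand), stood at 84.8 and 77.2 CPM in the wild-type pair and 61.7 and 64.9 CPM in the mutant pair. The 2 groups lay apart by more than the spread within either, and no single library stood out. Its log2 fold change was -0.36 ± 0.10 (SE; edgeR adjusted p = 0.0668), and from -0.42 to -0.29 with a library left out, never called.

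Thra overlaps Nr1d1 at the tail, through the last exon of the splice form that makes the variant alpha 2, which does not bind the hormone. In the GENCODE M1 annotation of mm9 the genes share the span from 98629246 to 98630320 on chromosome 11, 1075 bases, of which 263 are exon in both, 8.42% of the exon bases of Nr1d1 and 5.7% of those of Thra. Neither labels nor file headers state whether counting used strand, so how reads from the shared stretch were assigned is not known. Ambiguous reads, 0.602% to 0.726% of counted reads, were set aside in the deposited counts. Thra had 5294 and 2623 counts in the wild-type pair and 2609 and 3044 in the mutant pair, and Nr1d1 had 1069 and 516 against 476 and 625. The number of Thra counts per Nr1d1 count was therefore 4.95 and 5.08 in the wild-type and 5.48 and 4.87 in the mutant pair. In CPM both genes were highest in wild-type replicate 1 and lowest in mutant replicate 2.

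Put as a share, Nr1d1 made up 16.8% of the counts of both genes in wild-type replicate 1 (95% Wilson interval 15.9% to 17.7%), 16.4% in wild-type replicate 2 (15.2% to 17.8%), 15.4% in mutant replicate 1 (14.2% to 16.7%) and 17% in mutant replicate 2 (15.9% to 18.3%). The 4 intervals, which cover counting error only, overlap each other, and the shares do not separate the groups. By distance between log2 CPM values centred on their mean over the 4 libraries, Thra was the second nearest of 11325 genes to Nr1d1, at 0.13, between Taf9b at 0.129 and 5830415F09Rik at 0.135. Seen from Thra, Nr1d1 ranked 5 of 11325 genes, and 5830415F09Rik was nearest, at 0.106. The likeness is over 4 libraries only and is a description. For the other 9 clock genes Thra ranked between 3217 for Dbp and 11124 for Per2.

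Other genes along the same stretch of chromosome 11 did not show this profile. Of 9 neighbours listed, Thra included, 8 were tested. EdgeR, DESeq2 and limma voom called 0 of them, against 5.67% of all genes by edgeR. At an edgeR unadjusted p below 0.05 there was 1, Thra itself, against 25.5% of all genes. Med24, a Mediator subunit on the far side of Thra, stood at 72.1 and 67.6 CPM in the wild-type pair and 72.8 and 65.8 CPM in the mutant pair. Msl1, a chromatin gene on the far side of Nr1d1, went the other way in wild-type replicate 1, at 160 CPM there against 219 in the other wild-type library and 243 and 220 in the mutant pair. Thra itself had a log2 fold change of -0.60 ± 0.19 (SE; edgeR adjusted p = 0.0964), which was -0.26 with wild-type replicate 1 left out (adjusted p = 0.319). It was called at -0.89 with wild-type replicate 2 left out (adjusted p = 0.0464), at -0.75 with mutant replicate 1 left out (adjusted p = 0.00556) and at -0.57 with the replicate number as a block (adjusted p = 0.0281).

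**Figure D2:**
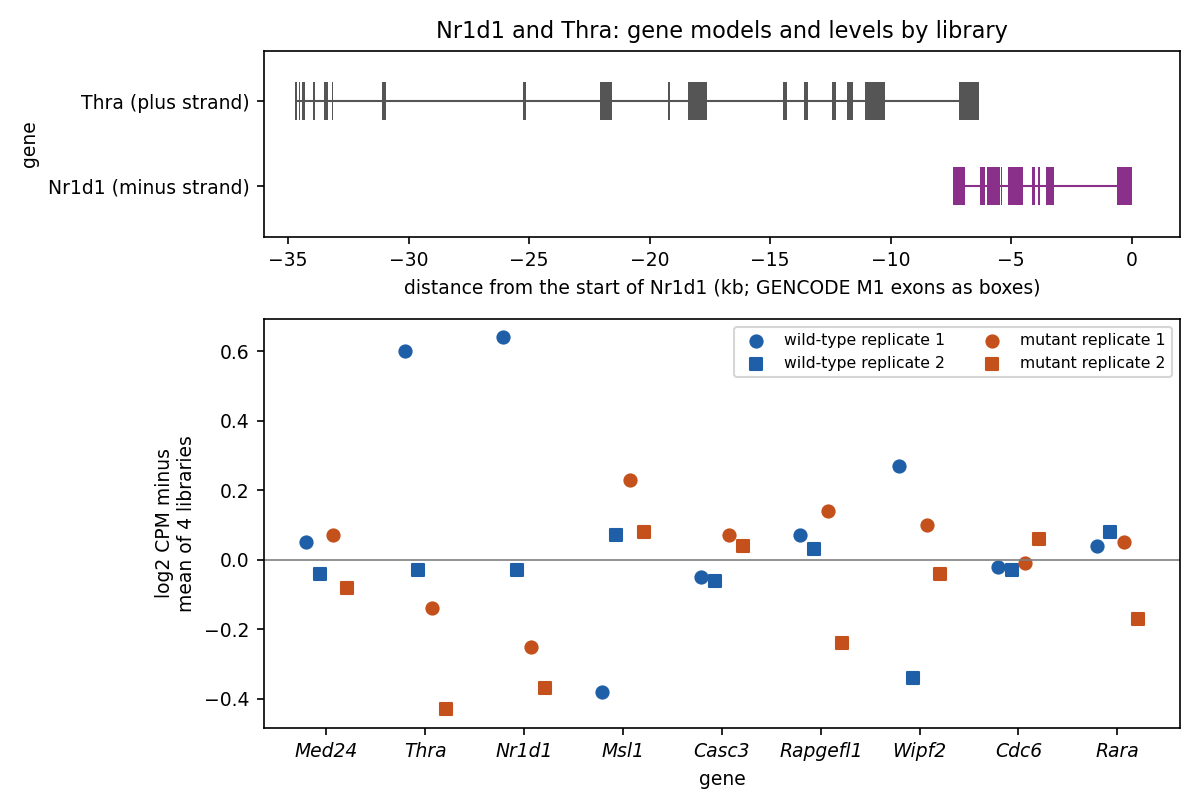
Upper panel, exons of Nr1d1 and Thra by distance in kb from the start of Nr1d1. Lower panel, log2 CPM of 9 genes of this region minus the gene's mean over the 4 libraries, 1 point per library: Nr1d1 (0.64, -0.03, -0.25 and -0.37) and Thra (0.60, -0.03, -0.14 and -0.43) have nearly the same profile, and the other 7 do not.

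The activators of the loop differed between the groups by less than the spread between replicates. Arntl (chromosome 7, 120350979 to 120457636, plus strand) lay at 26.6 and 23.6 CPM in the wild-type pair and 29.5 and 22.3 CPM in the mutant pair. The mutant values enclose the wild-type ones, and the log2 fold change was 0.03 ± 0.17 (SE; edgeR adjusted p = 0.93). Clock, its usual partner, was at 51.7 and 54.7 CPM in wild type and 58.4 and 49.6 CPM in mutants, a log2 fold change of 0.02 ± 0.11 (SE). Npas2 had 52 and 26 counts in the wild-type and 55 and 41 in the mutant pair, or 3.91 and 2.55 against 5 and 2.62 CPM, and a log2 fold change of 0.15 ± 0.39 (SE). For these 3 genes mutant replicate 1 was the highest library and the spread within the mutant pair was as large as or larger than the difference between groups. The sign of all 3 changed with the library left out. Mutant replicate 1 also had the largest share of reads in no gene, 17.3% against 13.8% to 15.3% elsewhere. The part of this in the values was not tested.

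The inhibitors pointed in both directions, and edgeR called none of the 4 (Cry1 was at an unadjusted p of 0.031). Per1, a period gene that many acute signals also induce (chromosome 11, 68908719 to 68923462, plus strand), lay at 48.5 and 68.4 CPM in the wild-type pair and 44.4 and 48.9 CPM in the mutant pair, so the groups overlapped. Its log2 fold change of -0.32 ± 0.16 (SE; edgeR adjusted p = 0.258) was -0.06 (adjusted p = 0.818) with wild-type replicate 2 left out, which held the most Per1. Per2 was at 9.76 and 13.5 CPM in wild type and 12.8 and 14.6 CPM in mutants, a log2 fold change of 0.26 ± 0.21 (SE), and without wild-type replicate 1 it was 0.03. Per3, the gene with 2 D-boxes, was at 18.6 and 20.3 CPM in wild type and 14.7 and 16.6 CPM in mutants, groups that did not overlap, with a log2 fold change of -0.31 ± 0.16 (SE; edgeR adjusted p = 0.269). Cry1, a cryptochrome (chromosome 10, 84594447 to 84647799, minus strand), was the 1 clock gene higher in both mutant libraries, at 55.8 and 52.8 CPM against 47.5 and 40.6 CPM in wild type. Its log2 fold change was 0.30 ± 0.11 (SE; edgeR adjusted p = 0.154).

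Dbp, a D-box binding factor whose RNA has one of the widest daily swings in many tissues (chromosome 7, 52960458 to 52965525, plus strand), lay at 24.9 and 23.1 CPM in the wild-type pair and 16.1 and 16.9 CPM in the mutant pair. The spread within each group was small beside the gap between the groups. The log2 fold change was -0.54 ± 0.14 (SE; edgeR adjusted p = 0.0656), from -0.60 to -0.49 with a library left out and called in none of the 14 other settings. Dbp overlaps Sphk2 on the opposite strand over 491 exon bases, 16.7% of its own. Sphk2, a sphingosine kinase, was at 59.1 and 64.2 CPM in wild type and 55.3 and 56.5 CPM in mutants, with a log2 fold change of -0.14 ± 0.10 (SE; edgeR adjusted p = 0.41).

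**Figure D3:**
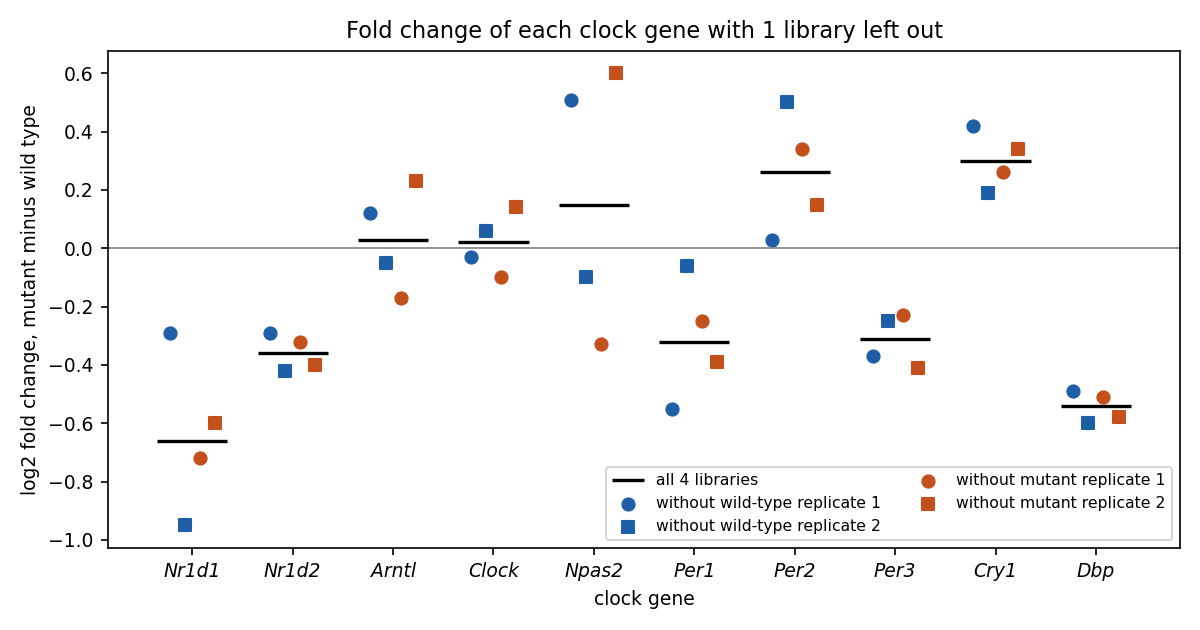
Log2 fold change of each clock gene with all 4 libraries (black line) and with 1 library left out (points). Nr1d1 spans -0.95 to -0.29, Dbp only -0.60 to -0.49, and Arntl, Clock and Npas2 fall on both sides of 0.

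Count ratios within a library do not depend on scaling. Dbp counts per Arntl count were 0.938 and 0.979 in the wild-type pair and 0.546 and 0.757 in the mutant pair. Nr1d1 counts per Arntl count were 3.02 and 2.14 against 1.47 and 1.79, and Nr1d2 counts per Arntl count 3.19 and 3.27 against 2.09 and 2.91. In these 3 ratios both mutant libraries lay below both wild-type libraries, with mutant replicate 1 the lowest. Arntl, the divisor in each, was highest in mutant replicate 1, and in CPM Nr1d1 was lowest in mutant replicate 2. The share of all genes whose ratio to Arntl lay apart in this way was not computed. Cry1 counts per Arntl count lay apart the other way, at 1.79 and 1.72 in the wild-type and 1.89 and 2.36 in the mutant pair. The ratio of Per3 to Arntl overlapped between groups, at 0.701 and 0.859 against 0.497 and 0.743, as did that of Per1, at 1.82 and 2.90 against 1.51 and 2.19. The ratios of Clock, Npas2 and Per2 to Arntl overlapped between groups too.

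Of 20 other clock genes listed, 19 were in the table and 18 were tested, Rorb having too few counts. EdgeR called 0 of the 18, with 3 at an unadjusted p below 0.05 (Gm129, Nfil3 and, named after its value was seen, Csnk1e, a kinase of the Per proteins), against 25.5% of all genes, and DESeq2 and limma voom called 0 as well. Their median log2 fold change was 0.07, beside -0.01 over all genes, and 7 were higher and 3 lower in both mutant libraries, against 28.3% and 29% of all genes. Gm129, since named Ciart, a repressor of the Arntl and Clock pair, had 45 and 38 counts in the wild-type and 15 and 22 in the mutant pair, or 3.38 and 3.72 against 1.36 and 1.4 CPM. Both groups were tight and far apart, but the gene is low, and its log2 fold change of -1.34 ± 0.33 (SE; edgeR adjusted p = 0.055) was called in none of the 14 other settings (adjusted p from 0.0516 to 0.204). Nfil3, a repressor at the D-boxes where Dbp activates, was at 27.8 and 18.4 CPM in wild type and 34.7 and 35.7 CPM in mutants, a log2 fold change of 0.59 ± 0.18 (SE; edgeR adjusted p = 0.0943). It was 0.93 with wild-type replicate 1 left out and 0.34 with wild-type replicate 2 left out, and was called in neither fit (adjusted p = 0.0768 and 0.221). Of the relatives of Dbp, named after their values were seen, Hlf was at 13.3 and 12.5 CPM in wild type against 10.3 and 10.5 CPM in mutants (log2 fold change -0.32 ± 0.18, SE), while Tef stood at a log2 fold change of 0.00 ± 0.09 (SE).

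**Figure D4:**
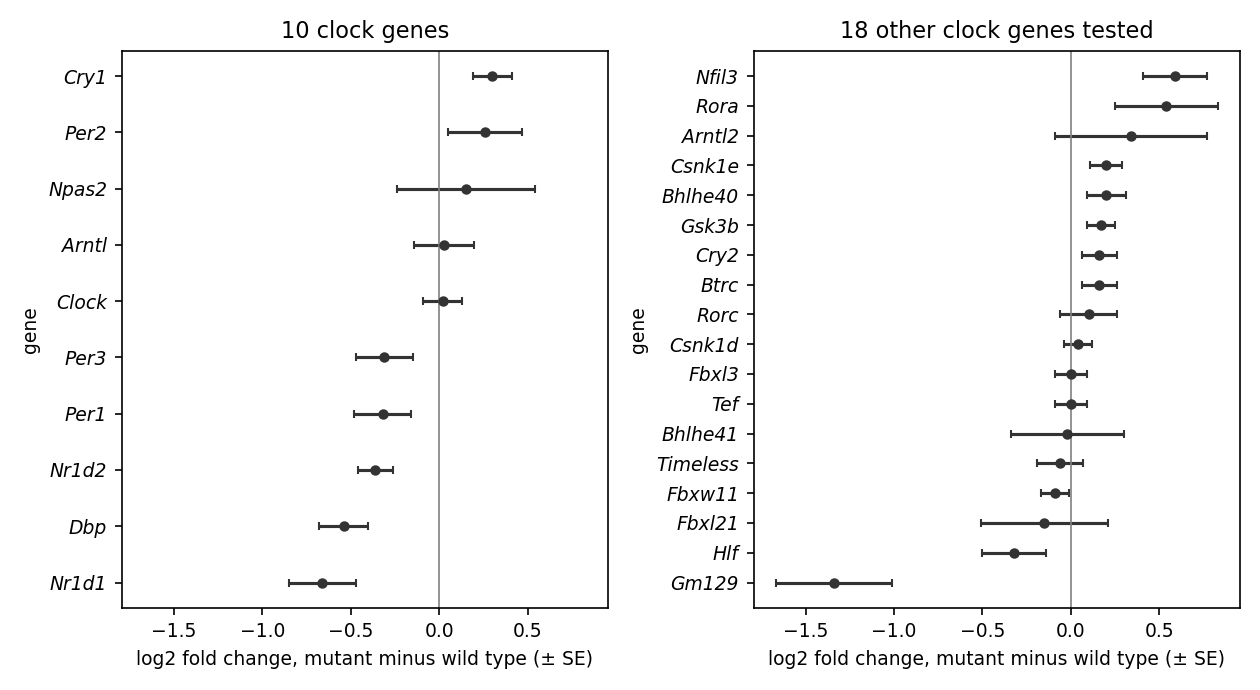
Log2 fold change, mutant minus wild type, with its SE for the 10 clock genes (left) and the 18 other clock genes tested (right). Nr1d1 and Dbp are the lowest on the left and Gm129, at -1.34, on the right, and Nfil3 and Cry1 are the highest.

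Among genes listed as downstream of the clock or of steroid signals, some were called and most were not. Of 12 listed and tested, edgeR called 1 higher and 3 lower, against 3.15% and 2.52% of all genes. DESeq2 called 4 and limma voom 2. The counts are a description only, since the list was chosen with earlier results of these data known. The glucocorticoid-induced gene Tsc22d3 fell, from 133 and 91.9 CPM in the wild-type pair to 69.6 and 69.8 CPM in the mutant pair (log2 fold change -0.69 ± 0.16, SE; adjusted p = 0.0444), and like Nr1d1 it was highest in wild-type replicate 1. Without that library it was at -0.40 and lost its call (adjusted p = 0.121), which it also lost by limma voom (adjusted p = 0.0584), with the robust option (adjusted p = 0.0615) and without the filter (adjusted p = 0.0679). The metallothionein genes Mt1 and Mt2, which bind metals and respond to glucocorticoids, both fell, Mt1 with a log2 fold change of -0.70 ± 0.13 (SE; edgeR adjusted p = 0.0291) and Mt2 with -1.49 ± 0.20 (SE; adjusted p = 0.0105), and the cell cycle inhibitor Cdkn1a rose, with 1.09 ± 0.21 (SE; adjusted p = 0.0296). These 3 lost their calls when either wild-type library was left out, fits in which calls fell over the whole table too. Their log2 fold changes moved little without wild-type replicate 1 or 2. They were -0.72 and -0.69 for Mt1, -1.47 and -1.51 for Mt2, and 1.13 and 1.06 for Cdkn1a. Cdkn1a also lost its call by limma voom (adjusted p = 0.0513). Fkbp5, another glucocorticoid-induced gene, named after its value was seen, was at a log2 fold change of 0.17 ± 0.09 (SE). Of the 12 genes, 6 had a negative and 6 a positive log2 fold change, and edgeR did not call 8. Beside Fkbp5 these were, named after their values were seen, Pdk4 (0.71 ± 0.24, SE), Klf9 (0.29 ± 0.18), Usp2 (0.23 ± 0.18), Wee1 (0.05 ± 0.12), Sgk1 (-0.02 ± 0.14), Klf15 (-0.03 ± 0.16) and Nampt (-0.30 ± 0.10).

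Genes that respond to handling, stress or temperature were read beside the clock, since Per1 shares such inputs. Of 15 tested, edgeR called 0, against 5.67% of all genes, limma voom called 0 and DESeq2 called 1, Cirbp. By edgeR 3 were at an unadjusted p below 0.05, against 25.5% of all genes. The log2 fold change was negative in 8 of the 15 and positive in 7. Named after their values were seen, Jun (0.36) and Egr1 (0.32) were positive. Nr4a1 (-0.32), Egr2 (-0.31), Ier2 (-0.29) and Junb (-0.19) were negative, and Rbm3 was at -0.03. Fos was at 3.23 and 3.72 CPM in wild type and 8.19 and 6.64 CPM in mutants, a log2 fold change of 1.08 ± 0.26 (SE; edgeR adjusted p = 0.0537) that passed without mutant replicate 2 (1.24, adjusted p = 0.0226) and with the robust option (adjusted p = 0.0483). The cold-induced RNA-binding gene Cirbp was at 183 and 258 CPM in wild type and 161 and 158 CPM in mutants (log2 fold change -0.47 ± 0.15, SE; edgeR adjusted p = 0.0978), was called by DESeq2 (adjusted p = 0.0277), and was called at -0.70 with wild-type replicate 1 left out (adjusted p = 0.0426) but stood at -0.20 with wild-type replicate 2 left out (adjusted p = 0.242).

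The makeup of the libraries differed between the groups, and its part in the clock values was not tested. For scale, edgeR called 3.15% of all genes higher and 2.52% lower, and 25.5% were at an unadjusted p below 0.05. The marker lists were chosen with earlier results of these data known, so their counts are a description. Summed over 10 skeletal muscle markers, of which edgeR and DESeq2 called 9 higher and limma voom 0, wild-type libraries held 13.5 to 13.6 CPM and mutant libraries 699 to 2710 CPM, with Myl1 at 0 in wild-type replicate 2. Of 13 germ cell markers tested edgeR and DESeq2 called 12 (lower) and limma voom 9, and their sums over 14 genes were 920 and 610 CPM in the wild-type and 335 and 292 CPM in the mutant pair. That is the order of the libraries in Nr1d1 and Thra as well. How many other genes have this order was not counted, and 29% of all genes were lower in both mutant libraries. Of 8 macrophage markers edgeR called 3 (higher), DESeq2 4 and limma voom 1 (220 to 291 against 376 to 527 CPM), and of 5 adipocyte markers each of the 3 tools called 3 (lower by edgeR; 76.1 to 83.4 against 27.3 to 27.8 CPM, with Cidec at 0 in mutant replicate 1). Of 12 Sertoli cell markers edgeR called 2 (lower), DESeq2 3 and limma voom 2 (6650 to 7360 against 5690 to 5730 CPM), and of 6 Leydig and 5 endothelial markers 0 by edgeR and limma voom, with 1 in each list by DESeq2 and 1 in each at an unadjusted p below 0.05. Fewer cells of a type and less RNA per cell cannot be told apart in such samples. The defining markers of the labelled tissue were present, with Amh, taken as the hormone that marks neonatal Sertoli cells and named after its value was seen, at 6308 to 10519 counts per library.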

How the data were processed

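Per the labels' protocols, polyadenylated RNA of 4 whole-testis samples went into libraries that the authors sequenced as single reads of 100 bases. The submitters' processing notes name the build mm9 and, in no stated role, TopHat 1.4.0, HTSeq, DESeq2 and CASAVA 1.8.1. Raw counts per gene were deposited in 1 table, entered under the heading of estimated counts because 5 summary lines of the same columns hold percentages. All gene values are whole numbers, so rounding changed nothing. How reads were counted (mode, strand, annotation) is not given in the sources used here.

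Gene counts summed to 10230512 to 15636832 per library, and their number limits the precision of low genes such as Npas2 and Gm129. Reads in no gene (13.8% to 17.3% of counted reads) and ambiguous reads (0.602% to 0.726%) stayed out of library sizes and tests. Genes were kept by edgeR's default filter (minimum count 10, minimum total 15) and compared by edgeR 4.0.16 (quasi-likelihood F test, R 4.3.3) with TMM normalisation, genotype as the only term, and the legacy and robust options off. Tests were two-sided and adjusted over all 14788 genes, with calls at an adjusted p below 0.05. CPM used TMM-adjusted library sizes. The SE was derived from the log2 fold change and the square root of F. RPKM used exon lengths of GENCODE M1 (mm9), in which 21627 table symbols occur, so levels are approximate where the authors' annotation differed. The script was tested on simulated data.

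The 14 alternatives comprised DESeq2 1.42.0, limma 3.58.1 (voom), 3 normalisations, 2 filters, the robust and legacy options, a replicate block, and leaving out each of the 4 libraries. Named genes are the 10 clock genes, Thra, and of each list up to 4 called members or, where none was called, the 2 with the smallest p, and the 3 genes nearest to Nr1d1 in pattern (log2 CPM with prior count 2, genes with a mean of at least 3). Not every gene this rule takes is described. Others are said to be named after their values were seen or named as overlap partners or neighbours. The members and lists were chosen with earlier results of these data known.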

Additional observations from a re-analysis of the deposited data

How the results depend on the processing

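Nr1d1, Nr1d2, Per1, Per3, Dbp and Gm129 stayed negative and Per2, Cry1 and Nfil3 positive in all 14 other settings. Arntl, Clock and Npas2 changed sign: Arntl was at -0.0036 by limma voom and, with a library left out, at -0.17 to 0.23 (negative without wild-type replicate 2 and without mutant replicate 1), Clock at -0.10 to 0.14 (negative without replicate 1 of either group) and Npas2 at -0.33 to 0.60 (negative without wild-type replicate 2 and without mutant replicate 1). Clock genes called lower numbered 1 by DESeq2 and 0 to 1 with a library left out (Nr1d1, without wild-type replicate 2 and without mutant replicate 1), and 0 in the other settings. None was called higher in any setting. Over all genes 466 were called higher and 373 lower. Limma voom called 309 higher, the fit without a filter on low counts 282 higher and 218 lower, and the fits with a library left out 34 to 818 higher and 40 to 477 lower, the fewest without wild-type replicate 1 (34 and 40), then without wild-type replicate 2 (60 and 88). A group left with 1 library is assumed to vary like the other.

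With the replicate number as a replicate block 512 genes were higher and 341 lower and 0 clock genes were called. The labels do not say that a number marks a shared litter or day. Deviations of same-numbered libraries from their group means correlated at -0.031 over 14788 genes. With 2 libraries per group, that value cannot decide whether same-numbered libraries shared a litter or day.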
